A study of Homo sapiens with 2 samples.

Results

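The genes described here encode the Wnt signalling pathway: ligands, the proteins that process them, receptors, secreted and feedback antagonists, intracellular transducers, TCF/LEF factors and targets. They were taken by name from a list of 54 genes, and 49 of the 54 were measured, out of 14232 genes in all. The cells are J82, an established line from a human bladder cancer, cultured here without any treatment. Hoechst dye staining and flow sorting split it into a side population (SP), the cells that pump the DNA dye out and so stain weakly, and a non-side population (NSP), the remaining cells. Total RNA of each population was read on 1 human exon array. Neither population has a replicate, so the values below come without a test or an error between samples, and what is said of SP and NSP holds for these 2 arrays.

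Wnt proteins are lipid-modified secreted ligands that bind Frizzled receptors together with co-receptors. In the beta-catenin branch the co-receptors are LRP5 and LRP6, and binding stops the destruction complex of APC, AXIN and GSK3 from marking beta-catenin for degradation, so that it reaches TCF/LEF factors and turns on targets such as AXIN2. Other branches run through ROR and RYK receptors to cell polarity and calcium signals, and the pathway has long been studied in bladder cancer and in stem cells.

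The deposited values are log2 signals from RMA, which is a background correction, normalisation and summary of array probes. They ran from 2.15 to 13.99 in SP and from 2.11 to 13.93 in NSP, with medians of 7.43 and 7.44. The floor used below is the median of all values, 7.44, and a gene counts as above it when the higher of its values reaches it. A value under the floor is not shown to be absent, since detection above background was not analysed here. Differences are SP minus NSP on the log2 scale. Among the 7549 genes above the floor the median difference was -0.05, and the central 95% ran from -0.51 to 0.63. Of the J82 and bladder epithelial markers, 6 of 11 measured were above the floor. These were KRT8 (13.18 in SP, 12.77 in NSP), KRT18 (10.57 and 10.32), KRT19 (7.73 and 7.58), KRT7 (7.55 and 7.53), VIM (10.12 and 10.16) and CDH2 (9.86 and 9.88). Under the floor were CDH1 (6.78 and 7.01), UPK2 (7.39 and 7.09), GATA3 (6.98 and 6.79), UPK1B (5.35 and 5.10) and EPCAM, at 4.42 on both arrays. Immune markers above the floor numbered 3 of 5 (list mean 6.66 in SP and 6.71 in NSP), with the defining leukocyte gene PTPRC at 3.74 and 3.80. Those 3 were CD68 (9.35 and 9.66), CD14 (7.73 and 7.64) and NKG7 (7.56 and 7.31). The counts were 1 of 6 for endothelial markers (means 6.11 and 6.05, PECAM1 at 5.36 and 5.20) and 0 of 3 for erythroid markers (5.79 and 5.59). The endothelial marker above the floor was CLDN5 (8.06 and 8.17). Fibroblast markers were above the floor for 4 of 5 (8.26 and 8.25) and did not share a direction. LUM (10.74 and 11.13) and COL3A1 (10.13 and 10.48) were lower in SP, PDGFRB (8.53 and 7.99) and COL1A1 (7.70 and 7.53) were higher, and DCN was dim at 4.21 and 4.14. The part of other cells in the differences below was not tested.

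The promoter windows of 4 members are shown because these genes had large differences in either direction: DKK1 and ROR1 were higher in SP, and FZD1 and FZD4 were lower. LRP6, whose difference was larger than that of ROR1, had no window among those used here. Each runs from 250 bases before to 50 after the gene's start, 5′ to 3′ in the direction of the gene, from RefSeq on GRCh38.p14. DKK1 is at chr10:52314031-52314330 (plus strand), ROR1 at chr1:63773767-63774066 (plus), FZD1 at chr7:91264183-91264482 (plus) and FZD4 at chr11:86955346-86955645 (minus). Capitals mark any match to the motifs named in the next paragraph.
DKK1: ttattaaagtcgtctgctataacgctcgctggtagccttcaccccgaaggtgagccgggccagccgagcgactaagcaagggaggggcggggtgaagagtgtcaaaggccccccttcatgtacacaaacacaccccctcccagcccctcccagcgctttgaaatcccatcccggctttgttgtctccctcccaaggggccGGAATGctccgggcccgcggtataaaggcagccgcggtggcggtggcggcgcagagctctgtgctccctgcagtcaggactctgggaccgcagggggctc
ROR1: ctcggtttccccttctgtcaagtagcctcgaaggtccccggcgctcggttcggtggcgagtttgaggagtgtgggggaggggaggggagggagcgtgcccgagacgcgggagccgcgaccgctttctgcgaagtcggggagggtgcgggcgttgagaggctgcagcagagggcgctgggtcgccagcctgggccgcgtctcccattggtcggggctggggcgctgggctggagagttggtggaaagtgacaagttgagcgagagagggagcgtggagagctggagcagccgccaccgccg
FZD1: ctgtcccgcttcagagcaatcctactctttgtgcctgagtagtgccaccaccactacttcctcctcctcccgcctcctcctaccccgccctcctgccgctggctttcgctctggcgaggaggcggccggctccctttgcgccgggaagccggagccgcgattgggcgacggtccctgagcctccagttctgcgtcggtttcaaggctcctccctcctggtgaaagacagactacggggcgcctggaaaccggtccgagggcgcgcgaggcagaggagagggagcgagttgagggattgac
FZD4: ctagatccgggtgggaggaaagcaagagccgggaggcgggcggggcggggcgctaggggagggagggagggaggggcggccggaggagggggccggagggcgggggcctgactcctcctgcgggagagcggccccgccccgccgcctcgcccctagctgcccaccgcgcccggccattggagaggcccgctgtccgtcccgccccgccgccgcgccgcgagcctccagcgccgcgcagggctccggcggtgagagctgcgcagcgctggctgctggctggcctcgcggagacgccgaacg

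These windows were searched on both strands for 4 short motifs that do not contain one another. The TEAD motif GGAATG was found in DKK1, starting 50 bases before the gene's start, and none of the 4 motifs was found in the windows of ROR1, FZD1 or FZD4. GGAATG is in 14.0% of all 35116 windows of the same length, so a match is a description of letters and not a binding site. RefSeq windows were matched to 35 of the 49 measured members, with 43 windows in all. GGAATG was in 3 of the 43, those of APC, DKK1 and RNF43. The TCF/LEF core CTTTGAT was in 0 of the 43 and in 2.62% of all windows. Only that exact spelling was searched. Spellings that differ from it by a letter, such as CTTTGAA and CTTTGTT in the DKK1 window, were not counted. The AP-1 motif TGANTCA was in 1 of 43 (RNF43) against 7.71%, and the CRE motif TGACGTCA in 1 of 43 (DVL1) against 1.85%.

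Most of the measured Wnt genes differed little between SP and NSP, and a few differed by more. DKK1, a secreted inhibitor of LRP5 and LRP6, was 2.42-fold higher in SP, and the co-receptor gene LRP6 was 1.53-fold higher. ROR1, WLS and WNT5A were also higher, by 1.25-fold to 1.38-fold, whereas the Frizzled genes FZD4 and FZD1 were lower, by 1.47-fold and 1.36-fold. Of the 49 measured members, 27 were above the floor and 22 were under it. Past 1.5-fold, 2 of the 27 were higher in SP, against a background of 3.1% of all 7549 genes, and 0 were lower, against 1.43%. Removal of a trend of the difference on signal level turned the background from 234 higher and 108 lower to 292 and 80, and left the members' counts at 2 and 0. At 1.2-fold, 5 of the 27 were higher (background 11.3%) and 3 lower (background 16.5%), and the other 19 lay within 1.2-fold. After quantile normalisation or removal of the signal trend, 5 were higher and 2 lower. The members above the floor had a median difference of 0.04, and 18 of the 27 were higher in SP, against 40.1% of all genes above the floor, while 9 were lower, against 59.6%. With the signal trend removed, 19 members were higher and 8 lower. The median of all genes above the floor then moved from -0.05 to 0.004. The shares of all genes higher and lower were not computed under that setting, so the contrast with 40.1% holds only for the values as deposited. In RNA from a sorted population, fewer cells of a kind and less RNA per cell cannot be told apart.

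**Figure D1:**
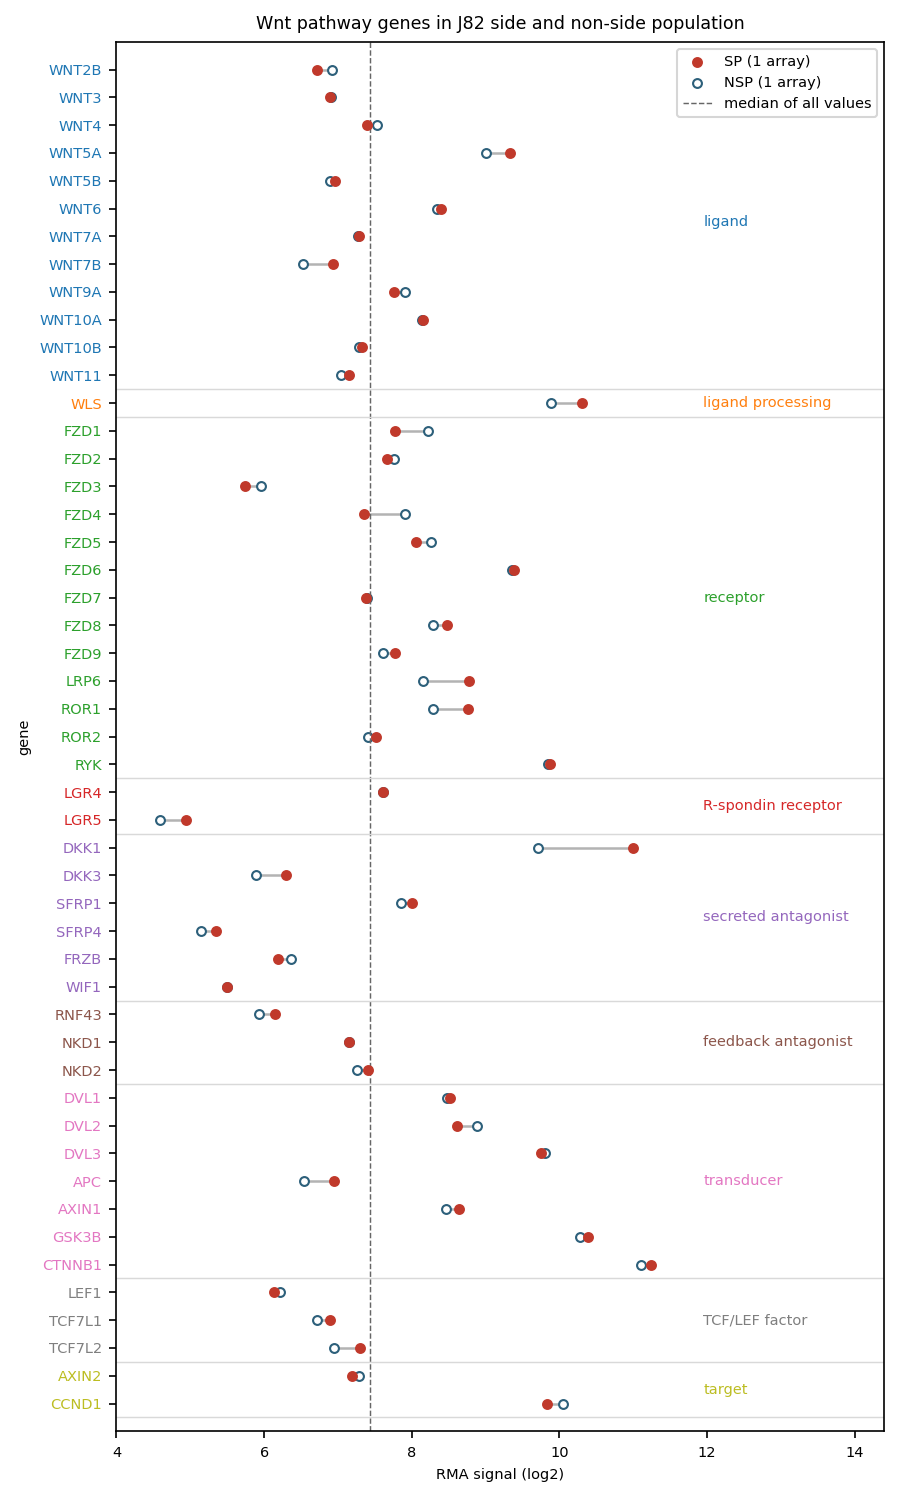
RMA signal (log2, x axis) of the 49 measured Wnt pathway genes, grouped by role, with a filled point for the SP array and an open point for the NSP array, and a dashed line at the median of all values (7.44). The longest gap is that of DKK1 (10.99 against 9.72), and for most genes the points nearly touch.

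Among the ligands, only WNT5A was at least 1.2-fold different above the floor. WNT5A, a ligand best known for beta-catenin-independent signalling, had a signal of 9.33 in SP and 9.01 in NSP, a difference of 0.32. It was 1.25-fold higher in SP and stood at position 640 from the top of the 7549 differences. WNT6 (8.39 in SP, 8.34 in NSP) and WNT10A (8.16 and 8.14) had nearly equal values. WNT9A (7.76 and 7.91) and WNT4 (7.40 and 7.53) had lower values in SP, with differences of -0.15 and -0.13. The SP value of WNT4 lay under the floor. The 5 ligands above the floor had a median difference of 0.01. The other 7 ligands were under the floor on both arrays. WNT7B had the largest difference of these, 0.41, between 6.93 in SP and 6.53 in NSP, which are dim values. WNT2B (6.71 and 6.92) was the only one of these dim ligands with a difference beyond 0.2 the other way. WNT3 (6.89 and 6.91), WNT5B (6.96 and 6.89), WNT7A (7.29 and 7.27), WNT10B (7.32 and 7.28) and WNT11 (7.15 and 7.03) differed by 0.11 or less.

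WLS, the carrier that brings lipid-modified Wnt proteins to the cell surface, had a signal of 10.31 in SP and 9.89 in NSP. Its difference was 0.41, a 1.33-fold higher value in SP, at position 448 from the top. PORCN, which attaches the lipid to Wnt proteins, was not analysed here.

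The receptors comprise Frizzled genes and others. Of the 9 Frizzled genes, which encode the receptors that bind Wnt directly, 6 were lower in SP and 3 higher, where 49.5% of all 14232 genes were lower and 49.2% higher. These counts were the same after quantile normalisation, after removal of the signal trend and with the brightest probe set per gene. Of the 7 above the floor 4 were lower, a share near the 59.6% of all genes above it. FZD4, also the receptor for the ligand Norrin, had 7.36 in SP and 7.91 in NSP. Its difference of -0.55 was at position 136 from the bottom, and its SP value lay under the floor. FZD1 had 7.77 in SP and 8.22 in NSP, a difference of -0.45. FZD5 was measured by 2 probe sets that differed in size though not in sign, at -0.36 and -0.04, and their mean was -0.20. FZD2 (7.66 in SP, 7.76 in NSP) and the dim FZD3 (5.74 and 5.95) also had lower values in SP, and FZD7 (7.38 and 7.39) was nearly equal. FZD8 (8.48 and 8.29), FZD9 (7.77 and 7.61) and FZD6 (9.38 and 9.35) had higher values in SP, by 0.19, 0.16 and 0.03. The median over the 7 Frizzled genes above the floor was -0.10, close to the -0.05 of all genes above it.

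Each of the 4 other receptors measured had a higher value in SP, where 40.1% of genes above the floor and 49.2% of all genes were higher. The direction was the same under every scaling run, but the scalings reuse the same 2 arrays. LRP6, the Frizzled co-receptor of the beta-catenin branch and the protein that DKK1 binds, had 8.77 in SP and 8.16 in NSP. Its difference of 0.62 was at position 200 from the top and just inside the range that holds 95% of genes. ROR1, a receptor tyrosine kinase-like protein that binds WNT5A, had 8.76 and 8.29, a difference of 0.47 at position 360. ROR2, its close relative, had 7.52 and 7.41, a difference of 0.11. It counts as above the floor through its SP value only. RYK, a further Wnt receptor, had 9.87 and 9.85. The 4 had a median of 0.29, carried by LRP6 and ROR1. LRP5 was left out because its probe sets are annotated with several genes.

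**Figure D2:**
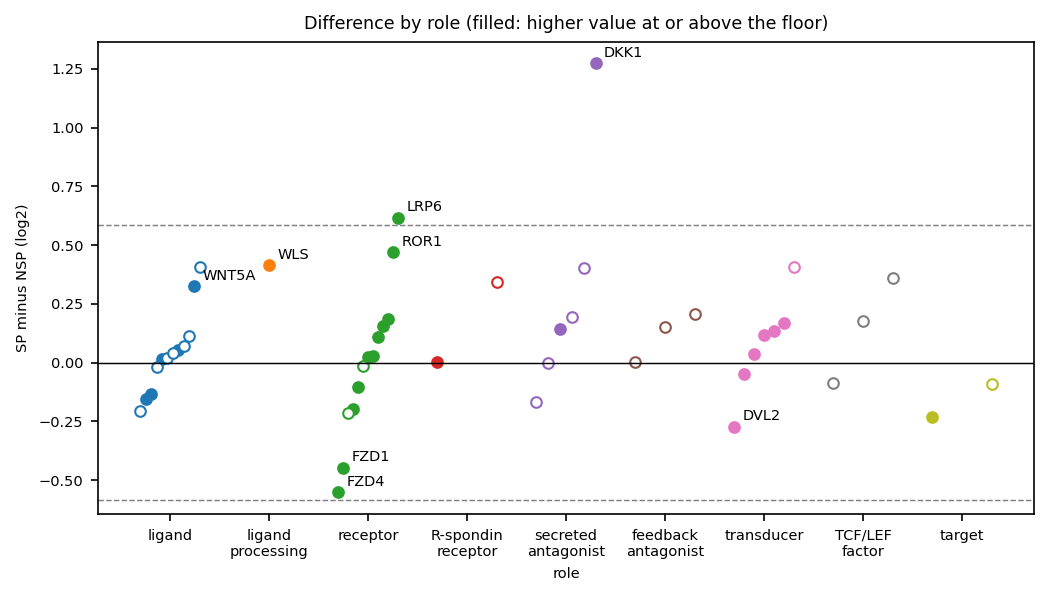
Difference between SP and NSP (log2, y axis) of each measured gene by role (x axis), filled where the higher value reaches the floor, with dashed lines at 1.5-fold. DKK1 and LRP6 lie beyond the upper line, FZD4 lies just inside the lower one, and the receptors spread from -0.55 to 0.62.

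The receptors for R-spondins, secreted proteins that strengthen Wnt signals, gave 1 gene above the floor. LGR4 had 7.61 on both arrays, a difference of 0.00. LGR5, a Wnt target used as a stem cell marker in the gut, was far under the floor at 4.94 in SP and 4.59 in NSP.

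The secreted antagonists held the largest difference of all members. DKK1, which blocks the beta-catenin branch by binding LRP5 and LRP6 and is itself a known Wnt target, had 10.99 in SP and 9.72 in NSP. Its difference of 1.27 was at position 16 from the top of 7549 genes, and it was the 1 member past 2-fold, where the background is 0.609% higher and 0.119% lower. SFRP1, a Frizzled-related protein that binds Wnt ligands, had 8.00 and 7.86, a difference of 0.14. The other 4 measured were under the floor on both arrays. DKK3, which is related to DKK1, had 6.29 in SP and 5.89 in NSP, with its 2 probe sets at 0.47 and 0.33. SFRP4 (5.34 and 5.15) was higher in SP and FRZB (6.19 and 6.36) lower, and WIF1 had the identical value of 5.50 on both arrays. DKK2 was left out because its probe set is annotated with several genes. The dim values of these 4 give no support to a statement on secreted antagonists as a class.

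The feedback antagonists were all under the floor. RNF43, a membrane ubiquitin ligase that removes Frizzled receptors, had 6.14 in SP and 5.94 in NSP. NKD2 and NKD1, which bind Dishevelled, had 7.41 and 7.26, and 7.15 and 7.15. The differences ran from 0.00 for NKD1, which turned below 0 when the signal trend was removed, to 0.21 for RNF43. ZNRF3, the partner of RNF43, was not analysed here.

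The intracellular transducers differed little. CTNNB1, which encodes beta-catenin, had 11.23 in SP and 11.10 in NSP, a difference of 0.13. GSK3B, the kinase that marks beta-catenin for degradation, had 10.39 and 10.27, and the scaffold gene AXIN1 had 8.64 and 8.47. DVL2, a Dishevelled gene that relays the signal from Frizzled receptors, had 8.62 and 8.89, a 1.21-fold lower value in SP. Its difference of -0.27 became -0.23 after quantile normalisation and -0.20 after removal of the signal trend, both within 1.2-fold. DVL1 (8.51 and 8.47) and DVL3 (9.76 and 9.80) had nearly equal values. APC, the tumour suppressor of the destruction complex, was 0.41 higher in SP, with dim values of 6.95 and 6.54. Of the 7 transducers, 5 were higher and 2 lower, beside 49.2% higher and 49.5% lower among all genes as deposited. With the signal trend removed DVL3 changed sign, which gave 6 and 1. The shares of all genes were not computed under that setting. The median of the 6 above the floor was 0.08.

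The TCF/LEF factors, which bind DNA with beta-catenin, were all under the floor. TCF7L2 had 7.30 in SP and 6.94 in NSP, a difference of 0.36, and TCF7L1 had 6.89 and 6.72, a difference of 0.18. LEF1, also a Wnt target, had 6.13 and 6.22. TCF7 was not analysed here.

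The members known as Wnt targets did not share a direction. The cyclin gene CCND1 had 9.83 in SP and 10.05 in NSP, a difference of -0.23. AXIN2, the destruction complex scaffold that is the most widely used readout of the beta-catenin branch, had 7.19 and 7.28, with its 2 probe sets at -0.04 and -0.14. Of the 7 measured members known as targets (AXIN2, CCND1, LEF1, NKD1, RNF43, LGR5 and DKK1), 4 had a higher and 3 a lower value in SP. Among all genes as deposited, 49.2% were higher and 49.5% lower. With the signal trend removed NKD1 joined the lower ones. DKK1 and CCND1 were the only ones of the 7 above the floor, and they lay on opposite sides of 0. With its brightest probe set alone (7.42 in SP, 7.56 in NSP), AXIN2 also reached the floor, through its NSP value.

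**Figure D3:**
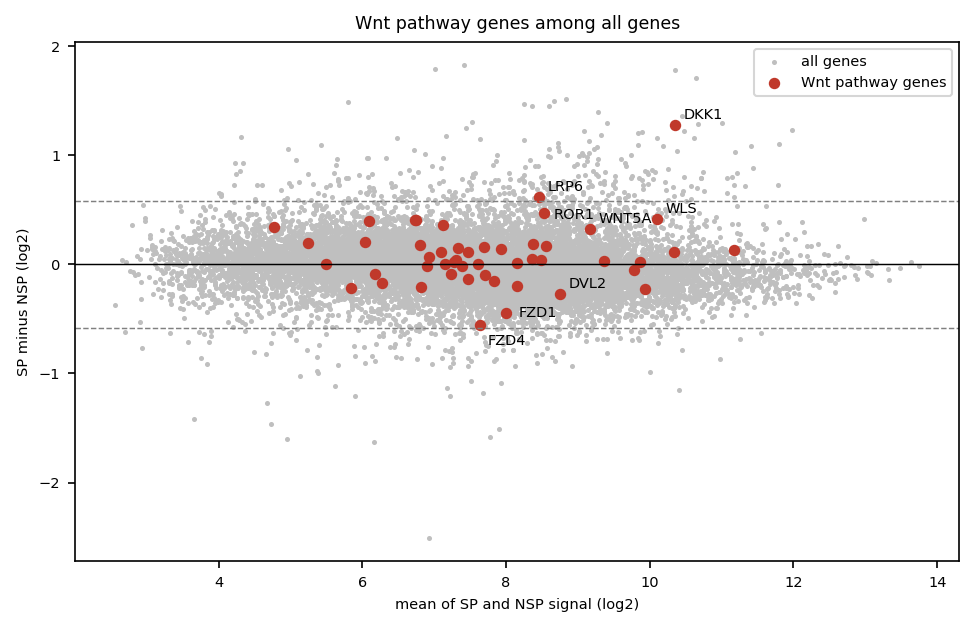
Difference between SP and NSP (log2, y axis) against the mean of both signals (log2, x axis) for all 14232 genes in grey and the 49 Wnt genes in red, with dashed lines at 1.5-fold. DKK1 stands near the upper edge of the cloud at its signal level, and most other Wnt genes lie within its dense part.

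Beyond these members, 7 lists with 147 further genes of the pathway were read in the same way, and 131 were measured. Of these, 86 were above the floor. The counts past 1.5-fold were 11 higher in SP and 1 lower, beside the background of 3.1% and 1.43%. The 11 lay in 3 lists: 7 among reported target genes, 2 among nuclear co-factors and 2 in the planar polarity and calcium list. The lists, like the members, were chosen with earlier results of these data known, so their counts are descriptions and not independent results.

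Of the other reported target genes, 25 of 35 measured were above the floor, and 7 of the 25 passed 1.5-fold on the higher side. The background is 3.1% of all genes above the floor, but the choice of this list was not independent of these data. The growth factor-responsive genes MYC (11.16 in SP, 10.31 in NSP) and JUN (10.27 and 9.50) were 1.80-fold and 1.71-fold higher. The Notch ligand gene JAG1 had 9.41 and 8.60, a difference of 0.81. VEGFA, an angiogenic factor, had 10.94 and 10.22, a difference of 0.72. ABCB1, the drug efflux pump P-glycoprotein, had 9.87 and 9.17, a difference of 0.70. SP was itself sorted by dye efflux, and the part of that sort in the ABCB1 difference was not tested. ENC1 (9.80 and 9.14) and the cofactor gene LBH (8.43 and 7.79) had differences of 0.65 and 0.64. Many of these genes also respond to other pathways, so the list is not a readout of Wnt alone. Of all 35 measured, 23 were higher and 12 lower in SP, beside 49.2% higher and 49.5% lower among all genes as deposited. With the signal trend removed, 26 were higher and 9 lower. The shares of all genes were not computed under that setting. The median of the 25 above the floor was 0.11. SP5 and TNFRSF19, named after their values were seen because they are close Wnt readouts, had 8.23 and 8.12, and 9.00 and 8.80.

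The nuclear co-factors had 16 of 17 measured above the floor, and their median was -0.01, which turned to 0.03 after quantile normalisation and 0.05 after removal of the signal trend. TLE3, a Groucho-type corepressor that binds TCF/LEF factors, had 9.67 in SP and 8.84 in NSP, a 1.77-fold higher value. PYGO1, which works with BCL9 as a coactivator of beta-catenin, had 7.90 and 7.30. That is 1.51-fold higher, with only the SP value above the floor. The other TLE genes did not share that direction: TLE1 and TLE4 had differences of 0.08 and 0.24, and TLE2 and TLE5 of -0.32 and -0.36, and each kept its sign under every scaling run. CBY1, an inhibitor of beta-catenin, was 1.49-fold lower, just inside the threshold, at 7.07 and 7.65, with only the NSP value above the floor. The TLE genes other than TLE3, and CBY1, were named after their values were seen.

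In the planar polarity and calcium list, 17 of 25 measured were above the floor, with a median of -0.02, which turned to 0.02 after quantile normalisation and 0.04 after removal of the signal trend. NFATC2, a transcription factor activated by calcium through calcineurin, had 9.41 in SP and 7.92 in NSP, a 2.82-fold higher value at position 6 from the top. DAAM1, a formin that links Dishevelled to RHOA, had 7.56 and 6.93, a difference of 0.63, with only the SP value above the floor. Of the 25, 12 were higher and 13 lower, beside 49.2% higher and 49.5% lower among all genes as deposited. They were 15 and 10 when the signal trend was removed or quantile normalisation was used. Both settings also moved the median of all genes above the floor. It went from -0.05 to -0.02 after quantile normalisation and to 0.004 after removal of the signal trend.

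Of the R-spondins and other surface components, 4 of 13 measured were above the floor. TSPAN12, the tetraspanin that helps FZD4 respond to Norrin, had 8.66 in SP and 9.31 in NSP, a 1.57-fold lower value at position 72 from the bottom. It was the 1 gene of these lists at least 1.5-fold lower, and NDP, which encodes Norrin, was dim at 5.33 and 5.48. RSPO3, an R-spondin, had 8.17 and 8.01. NDP and RSPO3 were added to the named genes after their values were seen.

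Among the other secreted or surface antagonists, 3 of 10 measured were above the floor and none reached 1.5-fold. IGFBP4, an insulin-like growth factor binding protein that can also block LRP6, had 8.91 in SP and 9.48 in NSP, 1.49-fold lower. SOST, which encodes the LRP-binding inhibitor sclerostin, had 7.50 and 7.21, a difference of 0.29, with only the SP value above the floor. TPBG, a surface inhibitor of Wnt signals, had 8.83 and 9.03, a difference of -0.20.

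The other transducers had 21 of 24 measured above the floor, with a median of 0.08 and none at 1.5-fold. The casein kinase genes CSNK1A1 (8.75 in SP, 8.42 in NSP) and CSNK1G2 (10.19 and 10.51) differed by 0.33 and -0.32. FBXW11, a ubiquitin ligase subunit that binds marked beta-catenin, had 8.21 and 7.90, a difference of 0.31. The 7 other Wnt ligand genes were all under the floor, with differences from -0.09 to 0.19.

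**Figure D4:**
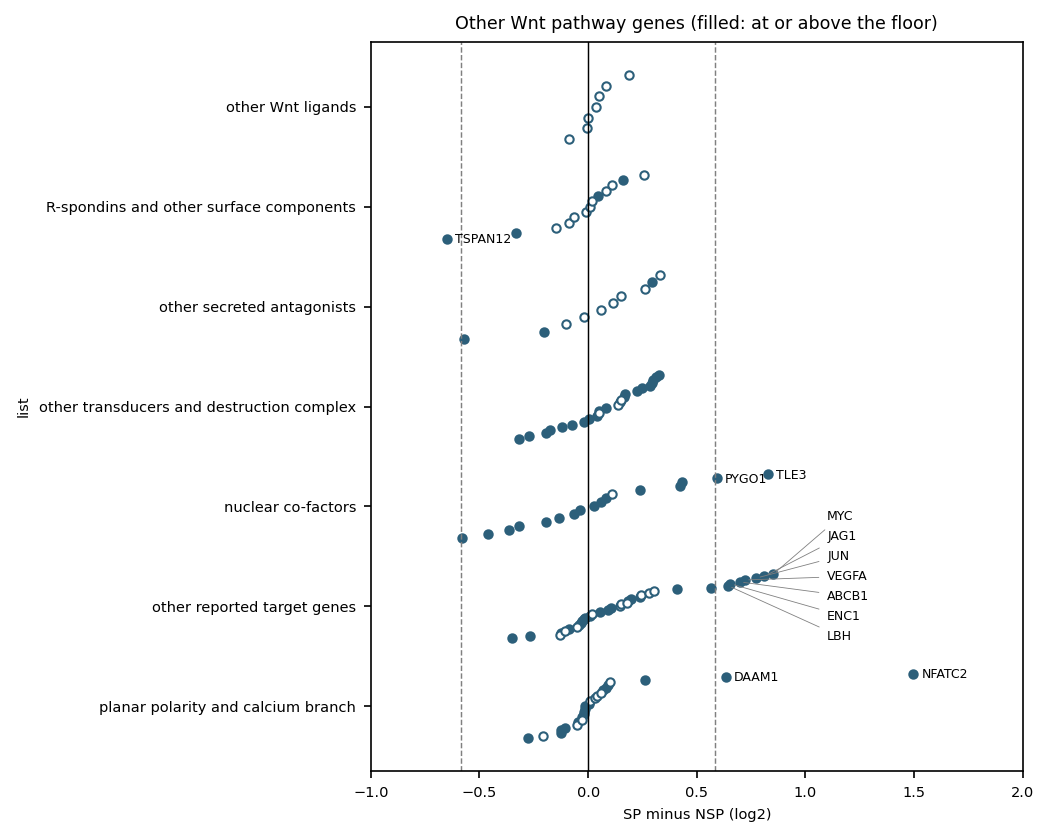
Difference between SP and NSP (log2, x axis) of 131 further Wnt pathway genes by list (y axis), filled where the higher value reaches the floor, with dashed lines at 1.5-fold. The 7 labelled reported targets and NFATC2, TLE3, DAAM1 and PYGO1 lie beyond the upper line, and TSPAN12 lies beyond the lower one.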

How the data were processed

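Gene expression of sorted J82 cells was measured on 2 human exon arrays, 1 for SP and 1 for NSP. The deposited values are log2 signals per probe set, made by the authors with RMA and Partek, per the submitters' processing notes. For versions, probe set definition, filters and genome build, the entry is: not given in the sources used here. That the scale is log2 was inferred from RMA and the range of the values. Dim probe sets show compressed differences after RMA, and the number of arrays limits the precision.

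Of 22011 probe sets, the platform annotation gives 14432 exactly 1 symbol, 2408 several and 5171 none. Only the first kind was used. Symbols were updated by Entrez identifier in RefSeq GRCh38.p14 (14404 matched), and a gene's value is the mean of its probe sets (14232 genes). Of the 54 members, 3 had 2 probe sets, 2 were found only in probe sets with several symbols and 3 were not analysed here.

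Every measured member was given its value on both arrays, and those at least 1.2-fold different above the floor their fold. From each further list, genes past 1.5-fold above the floor were named, or else the 3 with the largest difference. Members, lists and roles were chosen with earlier results of these data known. The counting code was tested on simulated data with planted differences larger than the threshold and little noise. That checks the code and says nothing of the reliability of these arrays. Alternatives were other floors, fold thresholds, scalings and the brightest probe set. Tables were made in pandas 2.3.3 with numpy 2.4.6 under Python 3.11.15, the lowess trend with statsmodels 0.14.6 and the plots with matplotlib 3.10.9.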

Additional observations from a re-analysis of the deposited data

How the results depend on the processing

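The counts of Wnt members at least 1.5-fold higher (2) and lower (0) in SP were the same with a floor at the 25th percentile, with both values above the floor, with no floor, after quantile normalisation, after removal of a lowess trend (span 0.3) and with the brightest probe set. At 2-fold 1 member was higher, and at 1.2-fold 5 were higher and 3 lower. For the further pathway genes the main counts were 11 higher and 1 lower. They were 1 and 0 at 2-fold, and 22 and 12 at 1.2-fold, and between 9 and 12 higher with 1 lower under the other settings. Centring on the median over all genes changed nothing, since that median was 0. Medians of all members, ligands, receptors and transducers each moved by less than 0.1 under every other setting. The DKK1 difference ran from 1.27 to 1.36, LRP6 from 0.62 to 0.68, FZD4 from -0.55 to -0.53 and DVL2 from -0.27 to -0.20. The 1.2-fold counts under other scalings were added after seeing the data. Quantile normalisation and removal of the signal trend gave 2 lower members in place of 3, without DVL2. The brightest probe set left them at 3. No paired analysis was possible because each population has 1 array, and for the same reason no replicate could be left out. Signal over background was not analysed here, so how far the 22 members under the floor can be read is unknown.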
